A study of Sus scrofa domesticus with 28 samples.

Results

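The nuclear genes of mitochondrial oxidative phosphorylation were followed in pig skin and in the scars that formed in it. They were chosen by symbol: every probe whose RefSeq accession maps to a pig symbol beginning with NDUFA, NDUFB, NDUFC, NDUFS, NDUFV, UQCR, ATP5, COX4, COX5, COX6, COX7 or COX8, or equal to SDHA, SDHB, SDHC, SDHD or CYC1. The rule found 28 of the 3216 named genes on the array, on 100 of its 43603 probes, and 78 genes of the pig reference table fit the same rule. The other 50, SDHA among them, were not analysed here. All 28 genes passed the filter on dim probes, and 97 of their 100 probes were well above background in all 28 biopsies. The chosen probe of ATP5L was the exception among the 28 and was well above background in 23 biopsies and in neither of the 2 late pressure hypo biopsies. No member probe was saturated, and 5 of the 784 member values were missing because the scanner program had flagged the spot.

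The biopsies came from 2 juvenile castrated male red Duroc pigs, numbered 49 and 50, a breed used as a model of thick and abnormally coloured scarring. Control skin gave 4 biopsies, from both sides of each pig. Early scar gave 8, all sham-treated, of which 4 were from scar labelled hyper and 4 from scar labelled hypo, the tags the labels use for pigmentation. Mid scar and late scar gave 8 biopsies each, 2 for each combination of sham or pressure treatment with hyper or hypo scar. The sample titles carry a further number of no stated unit, which varies within mid and within late scar and was not used. In mid and late scar every sham biopsy came from the left side and every pressure biopsy from the right, so treatment and side cannot be told apart. Each biopsy's RNA, in Cy5, was hybridised against a universal pig reference RNA in Cy3, without dye swap. Every value is therefore a log2 ratio of a biopsy to that reference, which can be set against the same gene in another biopsy but not against another gene. All groups came from the same 2 animals, so p-values measure the spread between these biopsies.

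The respiratory chain passes electrons from NADH through complex I, or from succinate through complex II, to complex III and then, by cytochrome c, to complex IV, which reduces oxygen. The proton gradient built on the way drives complex V, the ATP synthase. Several small subunits of complex IV exist in isoforms, some used in most tissues and others in heart and skeletal muscle, so the isoform in a skin biopsy also depends on whether muscle lies in it. By role, the 28 genes were 4 subunits and 1 assembly factor of complex I, 2 subunits of complex II, 2 of complex III and 9 of complex V. Another 10 were assigned to complex IV, counting NDUFA4L2, a relative of its subunit NDUFA4.

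Of 16 listed keratinocyte genes 4 were measured. Of these, 3 were well above background in all 28 biopsies and the fourth, IVL, in 26. Signal above background does not show which tissue a biopsy held. By the same measure, 22 of 33 measured skeletal muscle genes passed in all 28. The mean keratinocyte level was -3.38 in the left early hypo biopsy of pig 50, against -1.37 to 1.24 in the other 27. Per array, 13707 to 24298 probes had a Cy5 signal well above background. Skeletal muscle RNA differed far more between biopsies. The muscle level, the mean over 33 measured muscle genes of each gene's log2 ratio minus its median over all biopsies, was 4.85 in the late pressure hyper biopsy of pig 49, 4.01 in the mid pressure hyper biopsy of pig 49, 2.55 in the left early hypo biopsy of pig 50 and 1.59 in the late sham hyper biopsy of pig 49. The other 24 lay between -0.62 and 0.84, and the 4 control biopsies were between -0.62 and -0.43. These 4 muscle-rich biopsies stand apart, and results that rest on them are given with and without them. Where 1 of a group's 2 biopsies is left out, the remaining one is assumed to vary like those of the other groups.

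**Figure D1:**
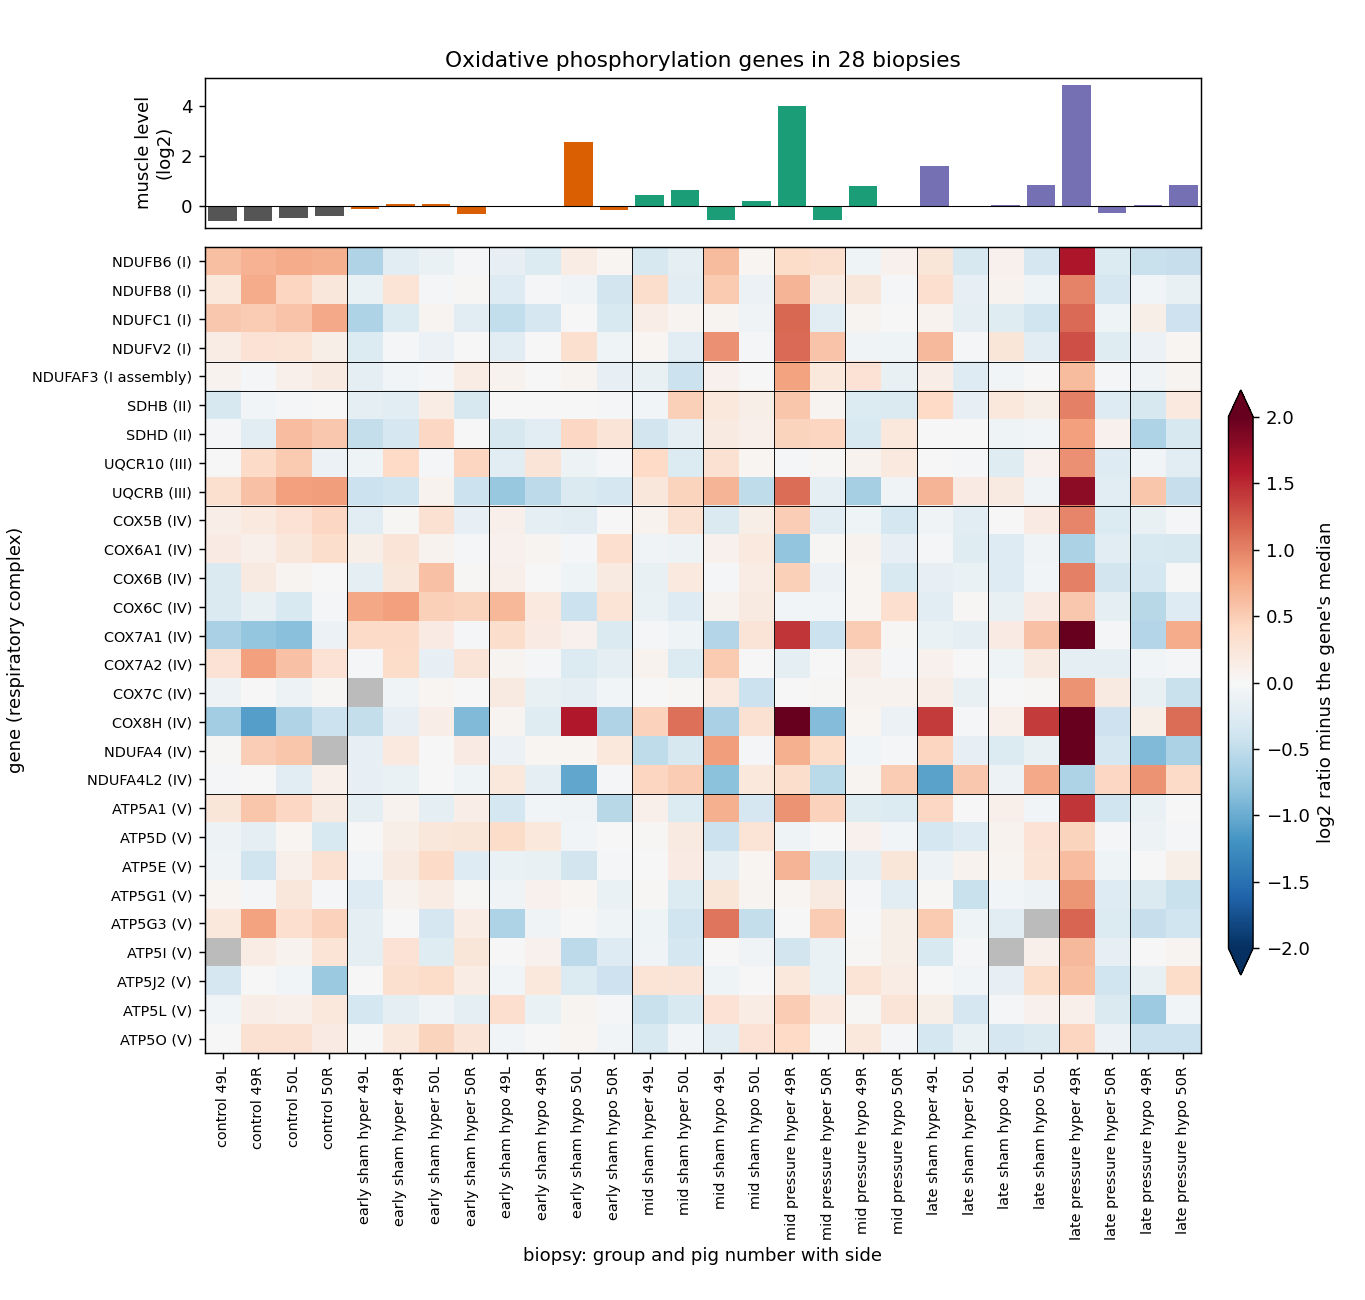
Each row is 1 of the 28 genes, with its complex in brackets, and each column 1 biopsy, ordered by group; colour is the log2 ratio minus the gene's median over the 28 biopsies, the colour scale ends at -2 and 2, and grey marks missing values. The bars give the muscle level of each biopsy on a log2 scale: the late pressure hyper biopsy of pig 49, at 4.85, is red in most rows, while most other columns stay near white outside the rows of COX8H and COX7A1.

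As a whole the genes were highest in the 2 biopsies with the most muscle RNA. The mean level of the 28 genes, built like the muscle level, was 1.03 in the late pressure hyper biopsy of pig 49 and 0.55 in the mid pressure hyper biopsy of pig 49. It was -0.04 in the left early hypo biopsy of pig 50 and 0.10 in the late sham hyper biopsy of pig 49. The other 24 biopsies lay between -0.19 and 0.19, so the muscle levels of 2.55 and 1.59 came with mean levels inside the range of the rest. The late pressure hyper biopsy of pig 49 held the highest value of 19 of the 28 genes and the mid pressure hyper biopsy of pig 49 that of 4 others. For 10 genes these 2 biopsies held both highest values.

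The slope of each gene on the muscle level was fitted with the 11 group means and the animal in the model, so it rests on differences between biopsies of the same group. Of the 28 genes, 5 had a slope above 0 at an adjusted p under 0.05 (limma, Benjamini-Hochberg over all 18765 features tested) and none had one below 0. Over all features the share called was 2.79%, 2.31% with a positive and 0.480% with a negative slope. The median slope of the 28 was 0.12, against -0.01 over all features, and 24 were positive. Of the 33 muscle genes that make up the level, none of which is a member, 29 had a called positive slope, which follows from how the level is built.

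COX8H, the subunit 8 isoform of complex IV found in heart and skeletal muscle, moved nearly one for one with the muscle level. Its log2 ratio was -4.80, -4.40, -4.30 and -4.12 in the 4 control biopsies. In early scar it ran from -4.57 to -2.09 with a median of -3.90, in mid scar from -4.57 to 0.85 with a median of -3.52, and in late scar from -4.11 to 1.75 with a median of -3.08. The highest value of each phase, -2.09, 0.85 and 1.75, belonged to the biopsy with the highest muscle level of that phase. Its slope was 1.08 ± 0.06 (SE), adjusted p = 3.61e-11, and both of its probes were called. The slope was 0.81 ± 0.10 without the 2 biopsies of highest muscle level (adjusted p = 5.46e-05) and 1.14 ± 0.21 without all 4 muscle-rich biopsies (adjusted p = 0.00800), so the call did not need those biopsies.

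COX7A1, the heart and muscle isoform of complex IV subunit 7A, was the next steepest at 0.38 ± 0.07, adjusted p = 0.00123. It stood at 0.24 in the late pressure hyper biopsy of pig 49 and at -0.86 in the mid pressure hyper biopsy of pig 49, and between -3.11 and -1.53 in the 24 biopsies of muscle level under 1. The left early hypo biopsy of pig 50, at -2.19, and the late sham hyper biopsy of pig 49, at -2.41, were inside that range in spite of their muscle levels. Without the 2 biopsies of highest muscle level its slope was 0.17 ± 0.12 and no longer called (adjusted p = 0.809), and without all 4 it was 0.997 ± 0.222 (adjusted p = 0.0203).

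The other called slopes were those of NDUFC1, a small membrane-arm subunit of complex I, at 0.22 ± 0.04 (adjusted p = 0.00324), COX5B, a nuclear subunit of complex IV, at 0.17 ± 0.04 (adjusted p = 0.0243), and SDHB, the iron-sulfur subunit of complex II, at 0.16 ± 0.04 (adjusted p = 0.0331). Without the 2 muscle-richest biopsies COX8H alone was called of the 28, with 0.743% of all features, and these 3 slopes were 0.09, 0.02 and 0.08. All 3 calls were also lost with those biopsies in, with processed signals, with the authors' deposited table and with the slide as a fixed term (adjusted p 0.0531 to 0.188), at slopes of 0.12 to 0.20. The slope of NDUFC1 was -0.19 without all 4 muscle-rich biopsies, with an adjusted p of 0.635. Leaving out the late pressure hyper biopsy of pig 49 alone, or the only other biopsy of its group, that of pig 50, also left 1 call of 28, with 0.939% and 0.929% of all features called. When 1 biopsy of a pair is left out, the other sets its own group mean and adds nothing to the slope. The count was 11 without either mid sham hypo biopsy, with 4.05% and 4.06% of all features called, and 8 without the left early hypo biopsy of pig 50, with 3.99%.

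Not every gene had a positive slope. COX6A1, the isoform of complex IV subunit 6A found in most tissues, was lowest in the 2 muscle-richest biopsies, at -1.38 in the mid pressure hyper and -1.23 in the late pressure hyper biopsy of pig 49, against -0.91 to -0.24 in the 24 biopsies of muscle level under 1. Its slope of -0.09 ± 0.03 was not called (adjusted p = 0.2096). COX7A2, the isoform of subunit 7A found in most tissues, had a slope of -0.04 ± 0.04 (adjusted p = 0.692). In the same 2 biopsies it was at -1.58 and -1.58, near the low end of its range of -1.67 to -0.57 in the 24. NDUFA4L2, a relative of the complex IV subunit NDUFA4 known as a hypoxia-induced gene, had its lowest values, 0.66 and 0.69, in the late sham hyper biopsy of pig 49 and the left early hypo biopsy of pig 50, the other muscle-rich biopsies, while its range in the 24 was 0.91 to 2.63. In the 2 muscle-richest biopsies it was inside that range, at 1.12 in the late pressure hyper and 2.09 in the mid pressure hyper biopsy of pig 49.

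**Figure D2:**
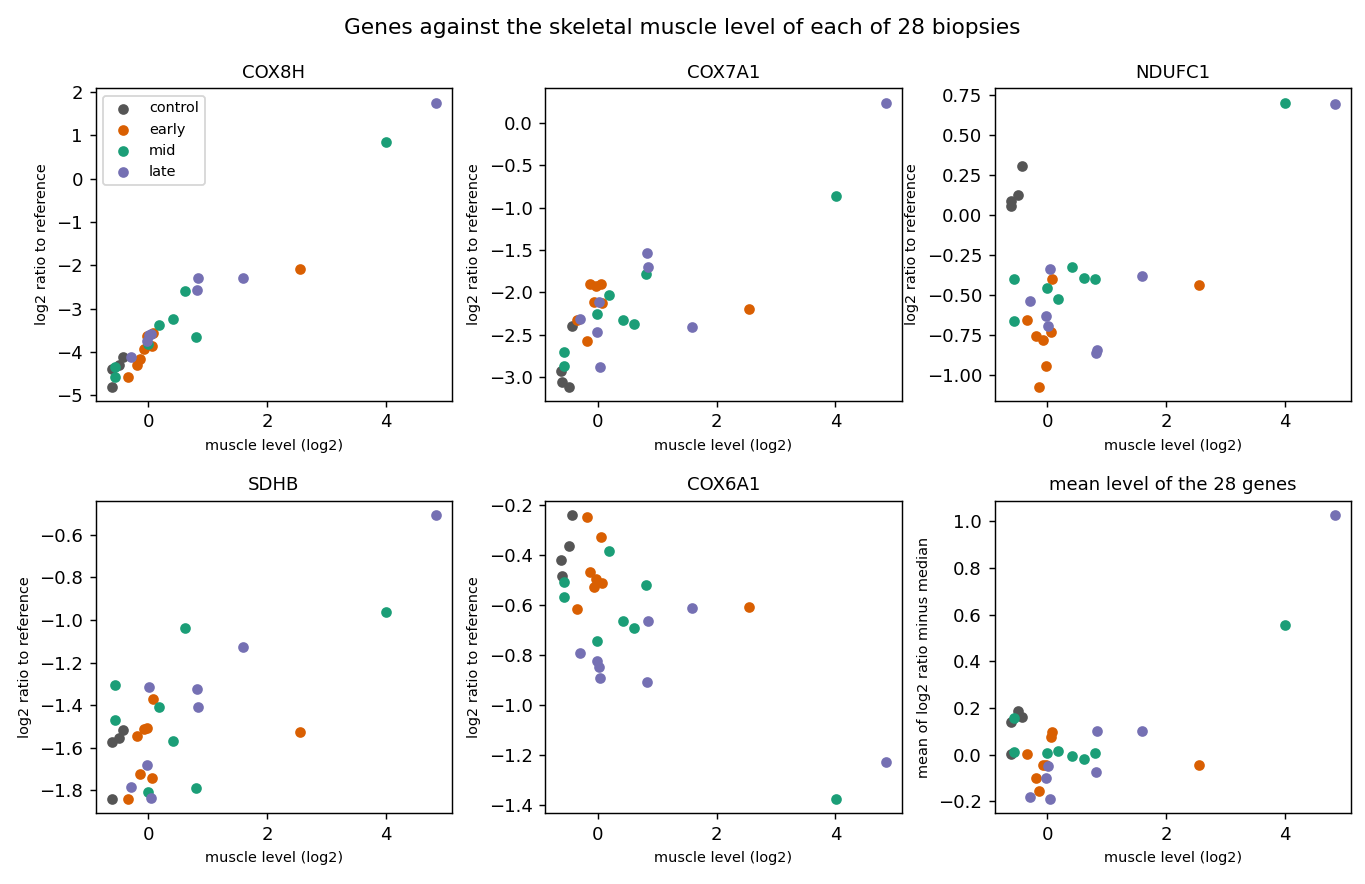
Each point is 1 of 28 biopsies, coloured by phase, with the muscle level (log2) on the horizontal axis and the log2 ratio to the reference on the vertical axis; the last panel shows the mean level of the 28 genes. COX8H rises along the whole range, from -4.80 to 1.75; in the mean level 2 points, at 1.03 and 0.55, lie above all others; and COX6A1 is lowest, at -1.38 and -1.23, where muscle is highest.

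Adipocyte genes moved with muscle in the same 2 biopsies: their level was 1.78 in the late pressure hyper and 1.73 in the mid pressure hyper biopsy of pig 49, against -0.67 to 0.83 in all other scar biopsies but the late sham hypo biopsy of pig 49, at 1.52. In the late sham hypo biopsy of pig 49 the muscle level was 0.01 and the mean level of the 28 genes -0.05. The smooth muscle level was 1.65 in the late pressure hyper biopsy of pig 49, the highest of 28, and 0.73 in the mid pressure hyper biopsy of pig 49, against -0.63 to 0.82 in the other 26. Called positive slopes on the muscle level were found in 3 of 13 adipocyte and 2 of 5 smooth muscle genes, against 2.31% of all features. The part of fat and smooth muscle in the slopes was not tested. In whole biopsies, fewer cells of a type and less RNA per cell cannot be told apart.

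Early scar was next compared with control skin, which asks how the respiratory chain genes differed once a scar had formed. Of the 28, 5 fell and 1 rose, with a threshold of 0.05 on the adjusted p. Over all features 38.9% were called, 24.1% higher and 14.7% lower. The 6 of 28 called, 21.4%, are a smaller share than that background. The median difference of the 28 was -0.13 on the log2 scale, against 0.11 over all features, and 20 of 28 were below 0. Of the 4 complex I subunits 3 fell, as did 1 of 2 complex III subunits and 1 of 10 complex IV genes. Another complex IV gene rose, and none of the 9 complex V genes was called.

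NDUFB6, NDUFC1 and NDUFB8 are accessory subunits in the membrane arm of complex I. NDUFB6 was -0.12, -0.03, 0.02 and -0.01 in control skin, and from -1.33 to -0.58 with a median of -0.87 in early scar. All 8 early biopsies were below all 4 controls, and the difference was -0.85 ± 0.22 (SE), adjusted p = 0.00520 by limma and 0.0993 with local backgrounds uncapped. For NDUFC1 the controls were 0.09, 0.05, 0.12 and 0.30 and early scar ran from -1.07 to -0.40 with a median of -0.74. Here too the groups did not overlap, with a difference of -0.86 ± 0.21, adjusted p = 0.00269.

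NDUFB8 was -0.72, -0.18, -0.49 and -0.70 in control skin and from -1.29 to -0.65, median -0.97, in early scar. The highest early biopsy was above the 2 lowest controls, and the difference was -0.47 ± 0.16, adjusted p = 0.0248. It was the least firm of the calls in early scar: 2 of its 4 probes were called, and the call was lost without the right control biopsy of pig 49, the left control of pig 50 or the left early hyper biopsy of pig 49, with adjusted p up to 0.101. It was also lost with uncapped backgrounds, with processed signals and without the animal in the fit, with adjusted p up to 0.127. NDUFV2, a matrix-arm subunit that carries an iron-sulfur cluster, differed by -0.25 and was not called.

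UQCRB, a small subunit of complex III near its ubiquinone site, had the largest difference of the 28. It was -0.84, -0.58, -0.34 and -0.33 in control skin and from -1.92 to -1.09, median -1.57, in early scar. Every early biopsy was below every control, and the difference was -1.03 ± 0.30, adjusted p = 0.00926. All 7 of its probes were called lower, with differences from -1.18 to -0.93. The other complex III gene, UQCR10, differed by -0.12 and was not called.

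In complex IV, COX7A2 fell and COX6C rose. COX7A2 was -1.10, -0.57, -0.79 and -1.09 in control skin and from -1.67 to -1.01, median -1.42, in early scar. Of the 8 early biopsies 7 were below all controls, the difference was -0.50 ± 0.13 (adjusted p = 0.00434), and 5 of 5 probes were called. COX6C, a small nuclear subunit, was -0.53, -0.38, -0.54 and -0.26 in control skin and from -0.67 to 0.59, median 0.22, in early scar. Of the 8 early biopsies 7 were above all controls, and the left hypo biopsy of pig 50, the muscle-rich one, was below all of them at -0.67. The difference was 0.59 ± 0.16 (adjusted p = 0.00679), and 3 of 3 probes were called.

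In complex V no gene was called, although ATP5A1, the alpha subunit of the catalytic head, and ATP5G3, a gene for the ring-forming c subunit, did not overlap control skin. ATP5A1 was -1.04, -0.73, -0.87 and -1.11 in control skin and from -1.83 to -1.15 in early scar, a difference of -0.49 ± 0.21 (adjusted p = 0.0701). Its chosen probe was 1 of 14, of which 10 were called lower when probes were tested one by one, with differences from -1.10 to -0.36. ATP5G3 was -0.40, 0.20, -0.27 and -0.15 against -1.22 to -0.46, a difference of -0.60 ± 0.25 (adjusted p = 0.0649). With NDUFB6, NDUFC1 and UQCRB, 5 of 28 genes lay wholly below control skin, where the share over all features was 10.8% below, 15.9% above and 26.7% in either direction. None lay wholly above.

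**Figure D3:**
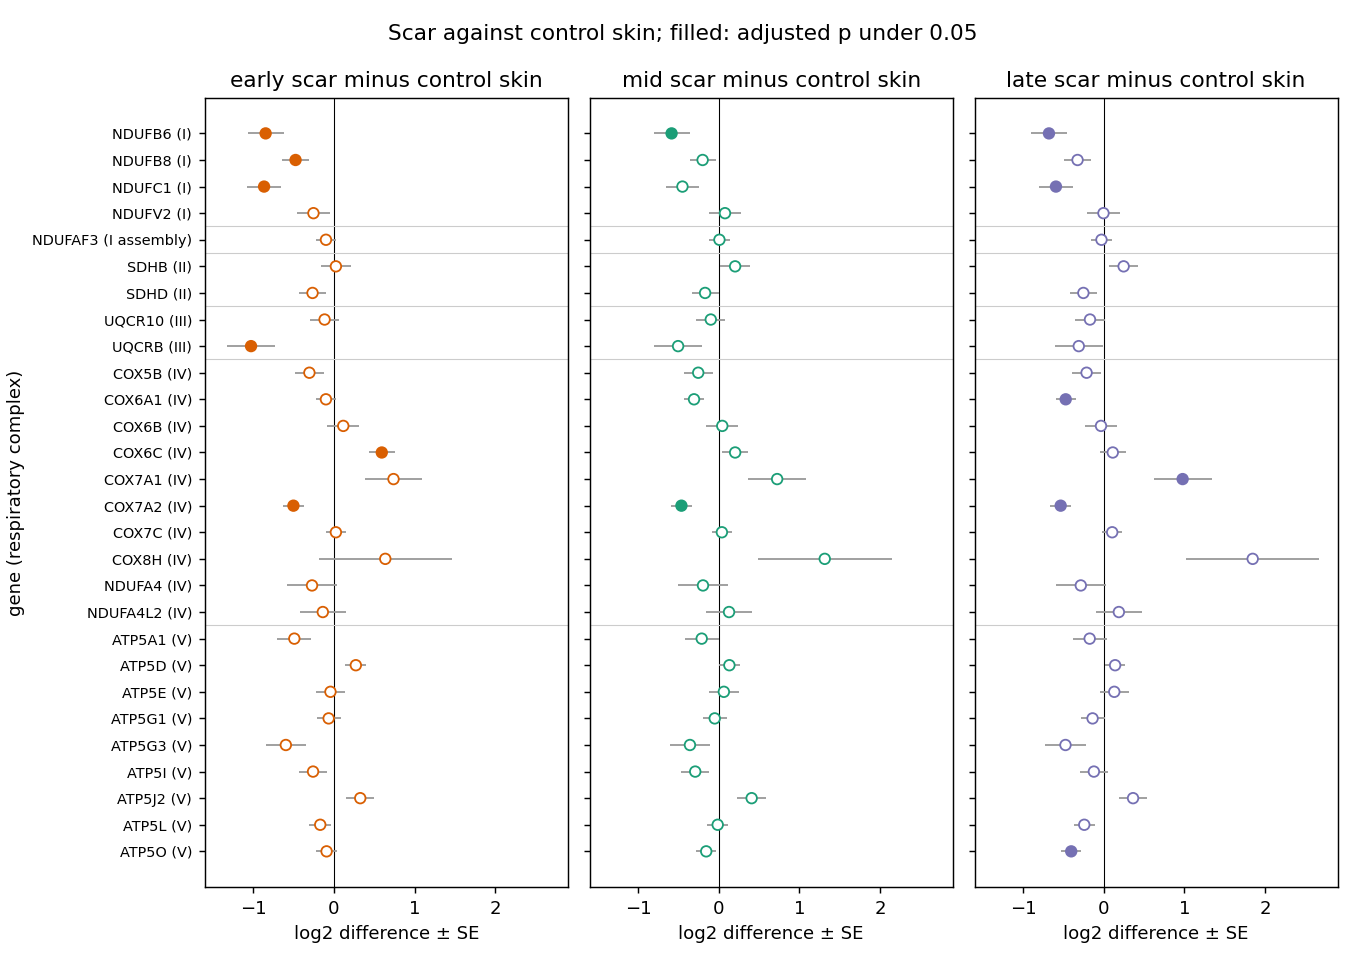
Each point is the log2 difference between scar and control skin for 1 of 28 genes, with the standard error of the fit as a bar, in early, mid and late scar; filled points passed an adjusted p of 0.05. In early scar the filled points are NDUFB6, NDUFC1, NDUFB8, UQCRB and COX7A2 below 0 and COX6C above it.

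Within each of the 2 slides that held both early scar and control arrays, all 6 called genes differed in the direction of the fit: UQCRB by -1.25 and -1.01, NDUFC1 by -0.89 and -0.71, NDUFB6 by -0.86 and -0.73, and COX6C by 0.53 and 0.59. Each of the 6 also had the same sign in both pigs, for COX6C with 0.83 in pig 49 and 0.35 in pig 50. These genes were called from the same arrays, so agreement in sign by slide and by pig is partly built in. Without the 2 muscle-richest biopsies 10 of 28 were called in early scar, 8 lower and 2 higher, over a background of 41.4%. Of the features called in that fit, 62.1% were higher. The early biopsies are the same there, and for ATP5A1 the SE went from 0.21 to 0.15. The genes added were ATP5A1, ATP5G3 and COX5B, lower, and COX7A1, higher by 0.74. Without all 4 muscle-rich biopsies, among them the left early hypo biopsy of pig 50, 9 were called, 7 lower and 2 higher. The background was then 42.1%, with 63.0% of the called features higher, and the median difference of the 28 was -0.11.

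Other tissue components also differed between early scar and control skin. The mean level of 4 apocrine gland genes was 3.60 to 4.93 in control skin and -0.58 to 2.73 in early scar. That of 13 adipocyte genes was 0.47 to 1.55 against -0.67 to 0.26, and 8 of the 13 were called lower. Endothelial genes, at -1.58 to -0.66 in control skin and -0.36 to 0.16 in early scar, were called higher in 6 of 7, and macrophage genes, at -1.14 to -0.38 and -0.26 to 1.21, in 5 of 8. Their part in the lower values of the respiratory chain genes was not tested. Of the 33 muscle genes 3 were called higher in early scar, against 24.1% of all features. In mid and late scar the apocrine level was -0.51 to 2.80 and -0.46 to 0.67, adipocyte genes were called lower in 7 and 5 of 13, endothelial genes higher in 6 and 7 of 7, and macrophage genes higher in 5 and 3 of 8. Keratinocyte genes had median differences of -0.87 in early, 0.01 in mid and 0.76 in late scar, with 1, 0 and 1 of 4 called lower. Their level was 0.05 to 0.23 in control skin, -3.38 to 0.08 in early, -0.75 to 0.82 in mid and -0.84 to 1.24 in late scar. Smooth muscle genes were called higher in 1, 0 and 0 of 5 and lower in 1 at each phase. Over all features 24.1%, 22.1% and 26.3% were called higher and 14.7%, 11.6% and 13.4% lower at the 3 phases.

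In mid scar fewer genes were called, 2 of 28, both lower, over a background of 33.8%, 22.1% higher and 11.6% lower. COX7A2 ran from -1.67 to -0.86 with a median of -1.38, 7 of 8 biopsies below all controls, a difference of -0.46 ± 0.13 (adjusted p = 0.00964). Without the right control biopsy of pig 49 or the left control of pig 50 its adjusted p was up to 0.0535. NDUFB6 ran from -1.04 to -0.09 with a median of -0.67, a difference of -0.58 ± 0.22 whose adjusted p of 0.0492 was just under the threshold and was lost when any of 11 of the 12 biopsies was left out. UQCRB, from -1.82 to -0.05 with a median of -1.08, was at -0.50 ± 0.30 (adjusted p = 0.197). The median difference of the 28 was -0.07 against 0.10 over all features. Without the 2 muscle-richest biopsies 5 were called, all lower, with 32.7% of all features called: COX5B, COX7A2, NDUFB6, NDUFC1 and UQCRB. Of the features called in that fit, 64.2% were higher. With local backgrounds left uncapped none of the 28 was called in mid scar, against 28.6% of all features. No gene of the 28 lay wholly outside the range of control skin, against 12.9% of all features, 7.31% above and 5.60% below.

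In late scar 5 genes fell and 1 rose, over a background of 39.7% called, 26.3% higher and 13.4% lower. COX7A2 ran from -1.58 to -1.21, below all 4 controls, a difference of -0.53 ± 0.13 (adjusted p = 0.00280). COX6A1 ran from -1.23 to -0.61 with a median of -0.84, also below all controls, which were -0.42, -0.48, -0.36 and -0.24. Its difference was -0.47 ± 0.13 (adjusted p = 0.00572), and 2 of its 5 probes were called. These 2 of 28 lay wholly below control skin, where the share over all features was 6.22%, and COX8H lay wholly above it, where the share was 9.79%, 16.0% in either direction.

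NDUFB6 fell by 0.68 on the log2 scale (SE 0.22, adjusted p = 0.0206) and NDUFC1 by 0.59 (SE 0.21, adjusted p = 0.0294) in late scar. In each gene 7 of 8 late biopsies were below all controls and the late pressure hyper biopsy of pig 49 was above all of them, at 0.89 for NDUFB6 and 0.69 for NDUFC1. Without the biopsies of muscle level above 1, late scar ran from -1.18 to -0.64 in NDUFB6 and from -0.86 to -0.34 in NDUFC1. Both ranges lie below control skin because the late pressure hyper biopsy of pig 49 is among those set aside. The call of NDUFB6 was lost without the left or the right control biopsy of pig 50 (adjusted p up to 0.0676). That of NDUFC1 was lost without either of these or either late pressure biopsy of pig 50 (adjusted p up to 0.0949).

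ATP5O, the stalk subunit of the ATP synthase that confers oligomycin sensitivity, was -0.71, -0.42, -0.42 and -0.56 in control skin and -1.16 to -0.29, median -1.03, in late scar. It was called at -0.40 ± 0.13 (adjusted p = 0.0152), and again the late pressure hyper biopsy of pig 49, at -0.29, was the 1 value above all controls. Without the right control biopsy of pig 49 or the left control of pig 50 its adjusted p was up to 0.0576, and it was 0.157 with processed signals, 0.0632 with the authors' deposited table, 0.124 with the slide as a fixed term and 0.234 uncapped. Within the 3 slides that held both late scar and control arrays, COX6A1 (-0.86 to -0.43) and COX7A2 (-0.85 to -0.37) differed the same way in all 3. NDUFB6 (-1.15 to 0.87), NDUFC1 (-0.92 to 0.57) and ATP5O (-0.73 to 0.13) did so in 2. Here too the genes were called from the same arrays.

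COX7A1 rose by 0.98 ± 0.36 (adjusted p = 0.0352) in late scar. Its controls were -2.93, -3.06, -3.11 and -2.40, and late scar ran from -2.87 to 0.24 with a median of -2.21. The call was lost without any of 7 of the 12 biopsies, with adjusted p up to 0.103. These were the controls of pig 49 and the left control of pig 50, the late pressure hyper biopsy of pig 49, and 3 late biopsies of pig 50 (sham hyper, sham hypo and pressure hypo). It was also lost uncapped, with processed signals, with the authors' deposited table and with no filter on dim probes (adjusted p 0.0527 to 0.0581). With the muscle level as a covariate the difference was 0.40 (adjusted p = 0.213), and without the 4 muscle-rich biopsies 0.62 (adjusted p = 0.0521). COX8H differed by 1.85 ± 0.83 and was not called in the full set (adjusted p = 0.0817), although all 8 late biopsies were above all 4 controls. Of the 33 muscle genes 5 were called higher in late scar, against 26.3% of all features.

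Late scar changed most when the muscle-rich biopsies were set aside. Without the 2 richest, 12 of 28 genes were called, 10 lower and 2 higher, over a background of 41.3%. Without all 4, 14 were called, 13 lower and 1 higher, over a background of 40.5%. The median difference of the 28 went from -0.15 in the full set to -0.32. Of all features called, 66.7% were higher without the 2 richest and 67.8% without all 4, so most of each background lay in the other direction. Added to the lower calls without all 4 were NDUFB8, SDHD, UQCRB, COX5B, NDUFA4, ATP5G1, ATP5G3 and ATP5L. The ATP5L probe was dim in late scar. It was well above background in 1 of 2 late sham hyper, 1 of 2 late sham hypo and neither of the 2 late pressure hypo biopsies. NDUFA4 moved further than the median of the 28. In the 6 remaining late biopsies it ran from -2.85 to -2.12, below the controls at -1.96, -1.48 and -1.42 with the fourth missing, and the difference was -0.74 ± 0.18 (adjusted p = 0.00345), against -0.28 ± 0.31 over all biopsies. The late biopsies set aside were the late pressure hyper biopsy of pig 49, at 0.29, and the late sham hyper biopsy of pig 49, at -1.54, both above all 6 others. COX8H was the gene called higher, at 0.84 ± 0.26 (adjusted p = 0.0167). The late biopsies that remained still had more muscle RNA than control skin, with muscle levels of -0.29 to 0.84 against -0.62 to -0.43. With all biopsies and the muscle level as a covariate, 9 of 28 were called lower in late scar and none higher, over a background of 36.6%. Of the features called in that fit, 66.8% were higher.

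**Figure D4:**
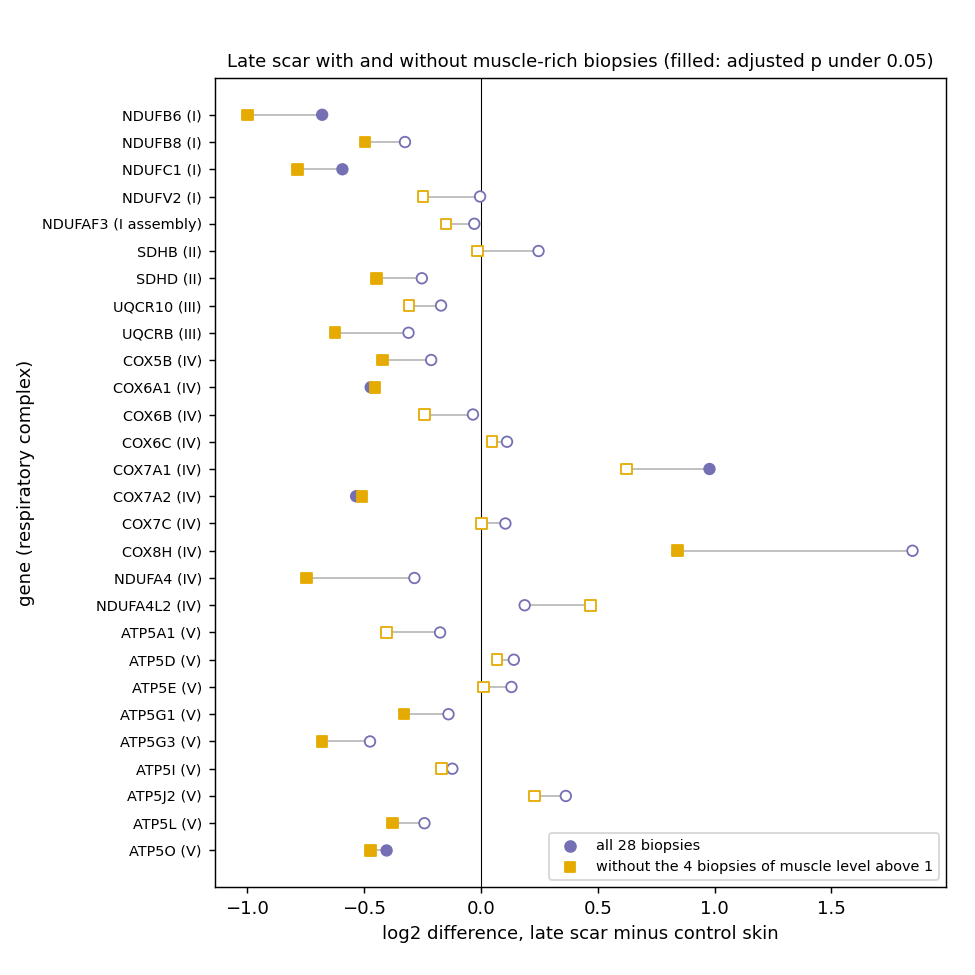
Log2 differences between late scar and control skin for 28 genes, with all 28 biopsies (circles) and without the 4 of muscle level above 1 (squares); filled symbols passed an adjusted p of 0.05. Most squares lie to the left of their circles, NDUFA4 moves from -0.28 to -0.74, and COX6A1 and COX7A2 stay in place.

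Slides and processing limited the late calls. With local backgrounds uncapped none of the 28 was called, against 31.7% of all features. With the slide as a fixed term 3 were, COX6A1, COX7A1 and COX7A2, against 31.8%. Leaving out the left control biopsy of pig 50 left 2 calls, with 28.5% of all features called, and leaving out the late pressure hyper biopsy of pig 49 gave 10, with 39.5%.

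Early, mid and late scar were all compared with the same 4 control biopsies, so agreement between them is partly built in. Among sham biopsies alone, 4 late scars were compared with 8 early scars. The 1 called gene of 28 was ATP5O, over a background of 19.9% called, 9.67% higher and 10.3% lower. It was -1.07, -0.86, -1.06 and -1.01 in late sham scar and -0.78 to -0.28, median -0.70, in early scar, so the groups did not overlap, which held for 6.75% of all features in this direction, 3.11% in the other and 9.86% in either. The difference was -0.38 ± 0.13 (adjusted p = 0.0371), and it was lost when any of 10 of the 12 biopsies was left out, with adjusted p up to 0.126; 1 of its 10 probes was called. With the mean over its probes the limma difference of ATP5O was -0.13 (adjusted p = 0.530), and the 1 gene called there was another. Without the 4 muscle-rich biopsies ATP5O was at -0.36 and was not the gene called. With local backgrounds uncapped the call of ATP5O was lost together with nearly all others, 11 of 18765 features being called in place of 3741. Each of the 4 late sham arrays, with 13707 to 18861 probes well above background, was below each of the 8 early arrays, with 19594 to 24163. Keratinocyte genes were called higher in 2 of 4, with a median difference of 1.42 and levels of -0.84 to 1.24 against -3.38 to 0.08, and adipocyte genes in 1 of 13, with a median of 0.63 and levels of -0.44 to 1.52 against -0.67 to 0.26. Their part in the difference of ATP5O was not tested.

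COX6C, high in early scar, was lower by 0.44 ± 0.16 in late sham scar without passing (adjusted p = 0.0589), and UQCRB, low in early scar, was 0.63 ± 0.30 above it without passing (adjusted p = 0.131).

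**Figure D5:**
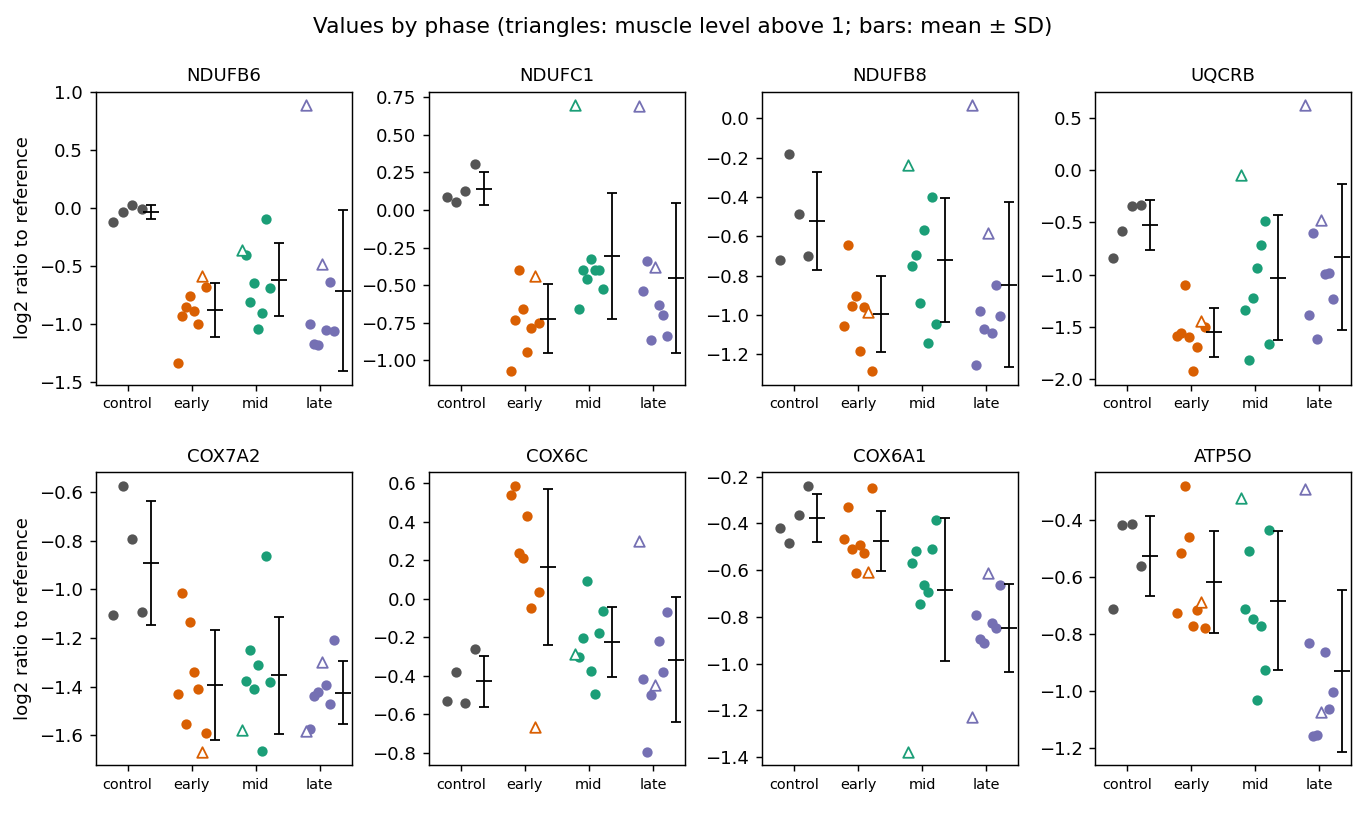
Log2 ratios to the reference of 8 genes in control skin (4 biopsies) and early, mid and late scar (8 each); open triangles mark the biopsies of muscle level above 1, and bars give the mean and SD. NDUFB6, NDUFC1 and UQCRB are lower in every early biopsy than in every control, COX6C is higher in 7 of 8, and in late scar the open triangle of the late pressure hyper biopsy of pig 49 is the highest point of NDUFB6, NDUFC1, NDUFB8, UQCRB, COX6C and ATP5O and the lowest of COX6A1 and COX7A2.

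Pigmentation was compared over 12 hyper and 12 hypo scar biopsies, the contrast the study was built around. By limma none of the 28 was called, over a background of 0.0107%, and 3 had an unadjusted p under 0.05, among 580 of all features. The median difference was 0.17, with 22 of 28 positive, against -0.03 over all features. The muscle-rich biopsies fall unevenly here, 3 of 4 being hyper, and without the 2 richest the median was -0.01. The largest of the 3 was UQCRB, at 0.47 ± 0.20.

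Pressure was compared with sham over 8 and 8 biopsies of mid and late scar. By limma none of the 28 was called, over a background of 0%, and 2 had an unadjusted p under 0.05, among 960 of all features. These were NDUFAF3, an assembly factor of complex I, at 0.30 ± 0.10 (adjusted p = 0.905), and COX6A1 at -0.23 ± 0.10 (adjusted p = 0.905). The median was 0.10 with 25 of 28 positive, and -0.07 without the 2 muscle-richest biopsies, both of which were pressure-treated.

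The difference between the pressure effect in hyper and in hypo scar had none of 28 called, with 9 at an unadjusted p under 0.05, and over all features 0% called and 3493 of 18765 at that unadjusted p. Pressure minus sham was 0.57 in hyper and -0.29 in hypo scar for SDHD, a membrane anchor of complex II, and 0.89 and -0.49 for NDUFA4, each over 4 and 4 biopsies. The tests of these differences gave 0.87 ± 0.27 (adjusted p = 0.120) and 1.38 ± 0.47 (adjusted p = 0.144). Both muscle-richest biopsies were in the pressure hyper arm, and the median over the 28 was 0.43 with them and 0.13 without them. Leaving out the late pressure hyper biopsy of pig 50, so that the muscle-richest biopsy stood alone for its group, gave 6 calls, with 2.20% of all features called in that fit. Without all 4 muscle-rich biopsies 1 gene was called, NDUFA4L2 at -1.06, with 10.95% of all features called.

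Between the pigs none of the 28 was called by limma, over a background of 0.203%, 0.133% higher and 0.0693% lower, and 4 had an unadjusted p under 0.05, among 1538 of all features. The lowest adjusted p was that of NDUFB8, lower in pig 50 by 0.33 (adjusted p = 0.316).

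Other genes of energy metabolism were taken from lists of the surrounding pathways. For the counts in these lists, the shares of all features called lower in early, mid and late scar were 14.7%, 11.6% and 13.4%. Those called higher were 24.1%, 22.1% and 26.3%. Of 11 measured genes of the citric acid cycle and pyruvate entry, 5 were called lower in early scar and 2 each in mid and late scar, none higher. MDH2, the mitochondrial malate dehydrogenase, fell at all 3 phases, with differences of -0.73 ± 0.17, -0.57 ± 0.17 and -0.50 ± 0.17. CS, citrate synthase, fell in early (-0.50 ± 0.17) and late scar (-0.45 ± 0.17). Of 12 genes of fatty acid oxidation 3 were called lower at each phase and CPT1B, the muscle form of the carnitine transferase, higher in late scar by 0.55 ± 0.19, and by 0.38 ± 0.15 without the 4 muscle-rich biopsies (adjusted p = 0.0436). ETFB, which passes electrons from acyl-CoA dehydrogenases to the chain, fell in early scar (-0.73 ± 0.15), as did CPT1A, the liver form of the carnitine transferase (-0.79 ± 0.21). Of 11 glycolysis genes 3, 1 and 2 were called lower, HK2, a hexokinase, at every phase (-0.74 ± 0.14 in early scar).

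Of 15 listed genes of mitochondrial biogenesis only 4 were measured, and at each phase 1 was called higher and 1 lower. TFAM, which packages and transcribes mitochondrial DNA, fell in early (-0.87 ± 0.12), mid (-0.82 ± 0.12) and late scar (-0.71 ± 0.12). TFB1M, which modifies mitochondrial ribosomal RNA, rose by 0.76 ± 0.19 in early scar, and PPARGC1A, a coactivator of mitochondrial genes, rose by 0.55 ± 0.19 in mid and 0.59 ± 0.19 in late scar. Of 9 outer membrane, carrier and kinase genes 3, 3 and 4 were called lower and 1, 1 and 2 higher at the 3 phases. TOMM20, a receptor for imported proteins, fell at each (-1.45 ± 0.15, -1.28 ± 0.15 and -1.09 ± 0.15), as did SLC25A6, an ADP/ATP carrier (-0.88 ± 0.21, -0.75 ± 0.21 and -0.70 ± 0.21). VDAC1, an outer membrane channel, rose by 0.70 ± 0.23, 0.94 ± 0.23 and 0.85 ± 0.23. Cytochrome c, CYCS, was not called at any phase.

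The muscle level also had called positive slopes in 5 of the 11 citric acid cycle genes, led by PDHB at 0.23 ± 0.05, in 3 of 12 fatty acid oxidation genes and in 4 of 11 glycolysis genes, led by PFKM, the muscle phosphofructokinase, at 0.69 ± 0.06. The share of all features with a called positive slope was 2.31%. CKMT2, the mitochondrial creatine kinase of striated muscle, had a slope of 0.48 ± 0.05, UCP3, an uncoupling protein of muscle, 0.68 ± 0.09 and CYCS 0.25 ± 0.06. The slopes of CKMT2, UCP3, CYCS, PDHB and PFKM were all called, and SLC25A6, at -0.20 ± 0.05, was the gene of these lists called with a negative slope. Without the 2 muscle-richest biopsies, PFKM was the 1 gene of these lists called, at 0.52 ± 0.11 (adjusted p = 0.0272), and without all 4 CKMT2 was, at 0.73 ± 0.16 (adjusted p = 0.0160). The slopes of PDHB and CYCS without all 4 were -0.32 and -0.44, that of UCP3 was -0.24, and none was called. In late scar, without all 4, the genes called lower were 8 of 11 in the citric acid cycle, 4 of 12 in fatty acid oxidation and 3 of 10 in glycolysis, while CPT1A, at -0.50, was no longer called (adjusted p = 0.0823). Of all features 40.5% were called in that fit, 67.8% of them higher.

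Among themselves the genes followed each other in part. Over 28 biopsies the correlation of a gene with the mean of the other 27 was highest for NDUFA4 (0.86) and ATP5A1 (0.81) and lowest for COX6A1 (-0.49) and NDUFA4L2 (-0.35). Over the 24 biopsies of muscle level under 1 it was 0.67 for COX7A2 and 0.47 for COX6A1, and -0.34 for COX8H, -0.37 for COX7A1 and -0.51 for NDUFA4L2, with 22 of 28 positive. These are descriptions over arrays that share a reference and 2 animals. Of 2360 other named genes without missing values, those whose pattern was closest to the mean level of the 28 over all 28 biopsies were VDAC3, an outer membrane channel (r = 0.91), ATPIF1, the inhibitor of the ATP synthase (0.90), FAM213B (0.89), ADSL (0.88) and SAR1B (0.88). Over the 24 they were ATPIF1 (0.74), AGPAT2 (0.73), DIABLO (0.70), MTFR1 (0.70) and PCLAF (0.70), so ATPIF1 was the only gene on both lists.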

How the data were processed

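Expression was measured in 28 biopsies on 28 arrays, 4 on each of 7 slides. Per the file headers and the submitters' processing notes, Agilent Feature Extraction 10.7.1.1 read the scans, and the deposited scanner files give spot and local background intensity on a linear scale. They also hold processed intensity and a log10 ratio of Cy5 to Cy3, per the file headers. A separate table deposited by the authors is on a log2 scale. Set against the processed signals, it matched their log2 ratio to within 0.001 for 99.97 to 99.99% of probes, with column medians of 0.0124 to 0.260; it was not further centred, and its direction is Cy5 over Cy3.

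Here median spot intensities were used, with local backgrounds capped at the 99th percentile of each array and channel, normexp correction (limma 3.58.1, R 4.3.3, offset 50), and loess within arrays. The cap was chosen with the data known: local backgrounds reached 649958, and without it the median corrected Cy5 signal of negative controls passed 100 on 14 arrays. A probe was kept if well above background on at least 4 arrays, and the probe of highest mean Cy5 signal stood for a gene. Members take their symbols from RefSeq accessions matched to the pig reference table, and the number of arrays limits the precision.

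The limma model held 11 group means plus the animal (16 residual degrees of freedom), with Benjamini-Hochberg adjustment over 18765 features. The animal block pairs the arrays because the same 2 pigs gave every group. Deviations from group means had a median correlation of 0.02 within an animal and -0.02 between animals. Named genes were the called members, the member of lowest p and the brightest member of each complex, the isoform pairs, and up to 3 genes of lowest p per other list; the 5 genes of most similar pattern over 28 biopsies were also named. Any other gene named, and the similar genes over 24 biopsies, were chosen after their values were seen. The members and lists were chosen with earlier results of these data known. The fit was tested on simulated data. The alternatives covered background, normalisation, filter, probe rule, animal and slide terms, muscle level and left-out biopsies. No gene coordinates or sequences are given, since the array files name no build.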

Additional observations from a re-analysis of the deposited data

Results flagged for a closer look

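The highest or lowest biopsy within a group of 4 to 8 was tested 177 times. In 29 tests it stood further from its neighbour than Dixon's critical value. In 1 uniform group a single test passes that value about 1 time in 20. The groups of 8 scar biopsies pool treatment or pigmentation, the early groups overlap, and the genes share arrays. The 29 of 177 therefore cannot be set against that rate. Of the 29, most were the late pressure hyper biopsy of pig 49, whose muscle level was 4.85 against 1.59 for the next late scar, and whose mean level of the 28 genes was 1.03 against 0.10. In the same biopsy these genes were the highest of late scar: ATP5A1 at 0.15, ATP5G1 at -0.29, ATP5I at -0.0691, ATP5O at -0.29, COX5B at -0.20, COX6B at 0.47, COX7A1 at 0.24 and COX7C at 0.65. The same held for COX8H at 1.75, NDUFA4 at 0.29, NDUFAF3 at -0.31, NDUFB6 at 0.89, NDUFC1 at 0.69 and UQCR10 at 0.13.

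In the mid pressure hyper biopsy of pig 49 the muscle level was 4.01 against 0.80 for the next mid scar and the mean level of the 28 genes 0.55 against 0.16. There COX8H at 0.85 and NDUFC1 at 0.70 were the highest of mid scar and COX6A1 at -1.38 the lowest. The left early hypo biopsy of pig 50 had a muscle level of 2.55, COX8H at -2.09, the highest of early scar, and NDUFA4L2 at 0.69, the lowest. The part of muscle in these values was not tested beyond the slopes given above.

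The remaining 4 values lay in other biopsies. COX7C was -0.68 in the mid sham hypo biopsy of pig 50, ATP5G3 was -1.22 in the left early hypo biopsy of pig 49, UQCRB was -1.09 in the left early hyper biopsy of pig 50, the highest of its group, and the mean level of the 28 genes was -0.10 in the right early hypo biopsy of pig 50.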

How the results depend on the processing

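Limits first: 2 animals gave all biopsies, most groups hold 2, and treatment and side cannot be told apart. Counts below are of the 28 genes called. For early scar against control skin the count was 6, and 10 with the mean over a gene's probes, with the muscle level as a covariate and without the 2 muscle-richest biopsies; leaving out single biopsies gave 5 to 7. For mid scar it was 2, and 0 with uncapped backgrounds, 1 with processed signals, no filter on dim probes, or the slide as a fixed or random block, and 5 with the muscle covariate or without the 2 or 4 muscle-rich biopsies; single biopsies gave 0 to 4. For late scar it was 6, and 0 uncapped, 3 with the slide fixed, 10 with the mean over probes, 12 without 2 and 14 without 4 muscle-rich biopsies; single biopsies gave 2 to 10. For late against early sham scar it was 1, and 0 uncapped, with processed signals, with the authors' deposited table and with either slide term, and 3 without the 2 muscle-richest biopsies; single biopsies gave 0 to 1. With the mean over a gene's probes and without the 4 muscle-rich biopsies that count was also 1, but the gene was not ATP5O. The pressure by pigmentation difference had 0, 1 without the 4 muscle-rich biopsies and 0 to 6 without single biopsies. Hyper against hypo scar, pressure against sham and pig 50 against pig 49 had 0 in every alternative run. The count of slopes was 5, and 13 uncapped, 2 with processed signals, the authors' deposited table or the slide fixed, 8 with the mean over probes, 1 without 2 and 2 without 4 muscle-rich biopsies; single biopsies gave 1 to 11. The cause of these shifts was not tested.

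Without the replicate block for the animal the counts were 5 in early, 2 in mid and 6 in late scar. They were 1 for late against early sham scar and 10 for the slopes. With each hyper and hypo pair of 1 animal, side and phase as a replicate block, 0 of 28 differed by pigmentation. The unused number in the sample titles differs within several of these mid and late pairs, so they may not be matched in full. The 1 reversed value was the slope of NDUFC1, -0.19 without the 4 muscle-rich biopsies. The muscle-rich sets were chosen after seeing the data; the plan had named the mid pressure hyper biopsy of pig 49, which proved second in muscle level. COX6C, COX7A2, NDUFC1 and UQCRB kept their early call in all 14 alternatives and 12 left-out biopsies, and COX8H its slope in 14 and 28. Aquantile leaves log ratios as they are. Of the 3741 late against early sham calls over all features 48.5% were higher; uncapped 11 features were called, 18.2% of them higher, and the share was 29.1% with processed signals and 31.7% in the authors' deposited table; for late scar the share was 66.3%, and 55.4% in that table.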
